A study of Helix lucorum with 35 samples.

Results

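The 12 E2 libraries of the snail Helix lucorum were analysed, of 35 samples in the whole series, all of them made from a small medial part of the parietal ganglia (PaG). The members were chosen by their labels, 6 activated and 6 control libraries, and no measured value entered the choice. In the activated samples, the part was bathed for 10 min with 20 µM anisomycin, and 100 µM caffeine and 5 µM serotonin (5-HT) were then added to the anisomycin for 20 to 25 min. The control part was cut out and frozen before any of these was added. Tissue of both groups had first been kept in saline with high calcium and magnesium, for 24 h at 4 °C and then 1 h at room temperature. The activated part thus also stayed longer in the dish, after the control part had been cut away. Effects of caffeine, serotonin, anisomycin, the new saline, the cut and the added time therefore cannot be told apart in this comparison.

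The libraries came from 7 snails. A pair of libraries, 1 activated and 1 control, was available for 5 of them (numbers 8, 9, 10, 11 and 13), whereas snail 7 was represented by an activated and snail 12 by a control library alone. The activated part was the left one in 4 of the 5 pairs and the right one in snail 9. With the unpaired snails included, 4 of the 6 activated and 2 of the 6 control parts were left ones.

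Pa2 and Pa3 are giant premotor interneurons that take part in the withdrawal behavior of the snail, and serotonin is a modulator of this circuit. Immediate early genes (IEGs) are transcribed within minutes of a stimulus from factors that the cell already holds, so that a block of protein synthesis, as by anisomycin, leaves their transcription possible and can prolong it. c-fos, which encodes a subunit of the AP-1 transcription factor, is a classic IEG of nerve cells in mammals. The labels name the pair of interneurons, whereas the methods describe a piece of ganglion with mainly their cell bodies. The identity of the cells was not checked against markers, since the files give contig numbers without gene names. In bulk RNA, fewer cells of a type and less RNA per cell cannot be told apart.

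Activated libraries held 926483 to 29646674 counts (median 11584470), and control libraries held 8551169 to 28246558 counts (median 10482980). The activated library of snail 9 was the smallest. It held a count for 30.2% of the tested contigs, whereas the other 11 libraries held a count for 66.7% to 89.6%. One count in it stood for 0.548 CPM (the count scaled to a common, TMM-corrected library size), against 0.0373 CPM in the activated library of snail 11. The distance between an activated and a control library, 1 minus Spearman's correlation over the tested contigs, averaged 0.336 for libraries of the same snail and 0.461 for libraries of different snails.

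The contig that the study assigned to c-fos/fosl2 was abundant and differed between the groups without overlap. The activated libraries of snails 7, 8, 9, 10, 11 and 13 held 152.0, 95.5, 93.1, 238.6, 180.2 and 119.7 CPM. The control libraries of snails 8, 9, 10, 11, 12 and 13 held 20.8, 27.0, 64.9, 7.98, 78.7 and 14.1 CPM. Even the lowest activated library, that of snail 9, lay above the highest control library, that of snail 12. The mean was 146.5 ± 56.3 CPM in the activated and 35.6 ± 29.1 CPM in the control samples (SD, n = 6 each), with a log2 fold change of 2.04.

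In 5 of 5 pairs, the activated part held more c-fos/fosl2 than the control part. The paired difference of log2(CPM + 0.5) was 2.18 in snail 8, 1.77 in snail 9, 1.87 in snail 10, 4.41 in snail 11 and 3.04 in snail 13, on average 2.65 ± 1.10 (SD, n = 5 pairs). Snail 11 had the lowest control value and the largest difference. The exact sign-flip permutation test over the pairs gave p = 0.0625 (two-sided), which is the smallest that 5 pairs allow. Over all contigs, the exact test of edgeR, which takes no account of the pairs, gave p = 0.000795 (rank 644 of 317414 contigs) and an adjusted p of 0.392, so that the contig was not called. With the snail as a block, the quasi-likelihood test of edgeR gave a log2 fold change of 2.65 and an adjusted p of 6.18e-05. That call was lost (adjusted p = 0.131) when the block was combined with a filter of at least 1 CPM in at least 6 libraries.

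**Figure D1:**
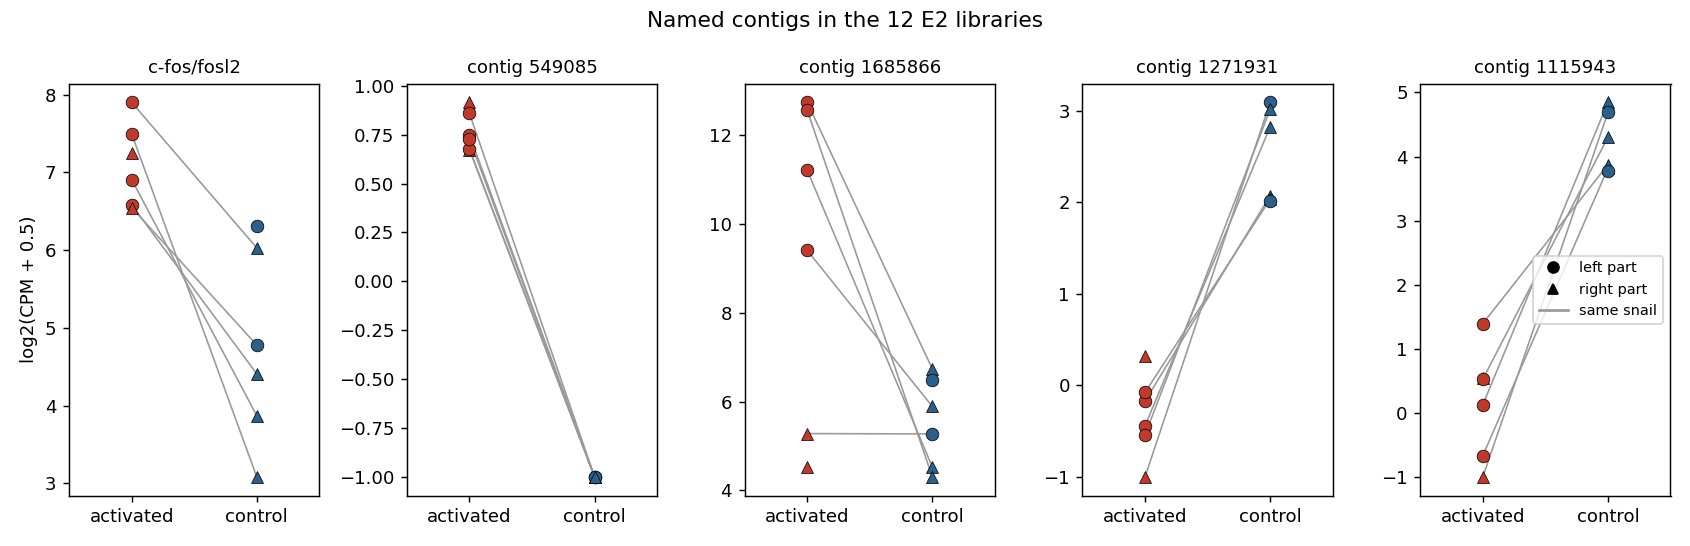
Levels of the 5 named contigs as log2(CPM + 0.5), with activated libraries left and control libraries right in each panel, circles for left and triangles for right parts, and lines joining the libraries of 1 snail. The groups do not overlap for 4 of the contigs, whereas contig 1685866 was high only in the 4 left activated parts.

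To find the contigs that responded as a whole, the groups were compared over 317414 contigs with a total count above 10, using the exact test. A contig was called if its adjusted p was below 0.05 and it differed more than 2-fold. This gave 112 contigs (0.0353%), of which 76 (67.9%) were higher and 36 (32.1%) were lower in the activated samples, or 0.0239% and 0.0113% of the contigs tested. The log2 fold changes ranged from 2.01 to 10.61 for the contigs called higher (median 3.30) and from -9.83 to -2.18 for those called lower (median -3.62). Over all contigs tested, the median was -0.06, and 45.2% of the contigs had a positive value. Before adjustment, 4457 contigs were higher and 5910 were lower at p below 0.05. The majority of higher contigs among the calls turned when the control library of snail 11 was left out (31 higher and 49 lower).

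The count depended on the test and on the block for the snail. With the snail as a block, the quasi-likelihood test called 1461 contigs, 943 higher and 518 lower, and these held 94 of the 112. Without the block it called 0 (12176 at an unadjusted p below 0.05), and with the block and the filter of at least 1 CPM in at least 6 libraries it also called 0 (2888 at an unadjusted p below 0.05). DESeq2 called 235 contigs, which held 96 of the 112, and limma-voom with the snail as a random block called 59, which held 44. The exact test, the quasi-likelihood test with the block, DESeq2 and limma-voom shared 43 contigs, 33 higher and 10 lower. The direction given by the exact test was the same for 112 of the 112 contigs in the other tests named here. All of them use the libraries that selected the contigs, so that this does not test the list.

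The call of a single contig also hung on single libraries. In 12 fits that each left out 1 library, between 52 and 192 contigs were called, 28 to 144 of them higher. The most were called without the activated library of snail 9, the smallest one, when 104 of the 112 remained. Without the control library of snail 8, 9 or 13, 52, 53 or 64 contigs were called, and without the activated library of snail 11, 72 were called. Of the 112 contigs, 29 (21 higher and 8 lower) were called in all 12 fits, and 56 in fewer than 6.

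**Figure D2:**
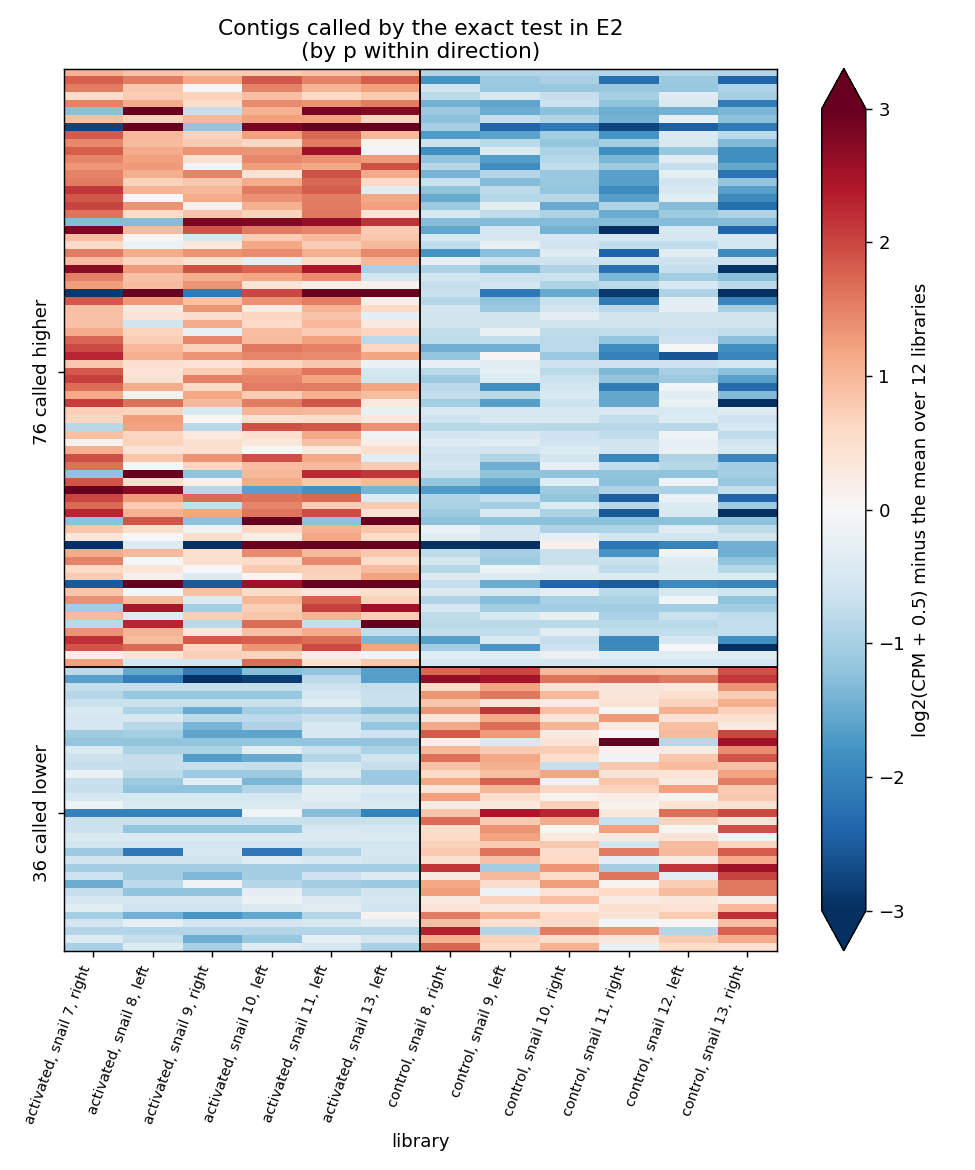
Heat map of the 76 contigs called higher and the 36 called lower, ordered by p within each direction, with the 6 activated libraries left and the 6 control libraries right. Color gives log2(CPM + 0.5) minus the mean over the 12 libraries, and values beyond 3 in either direction are drawn in the end colors.

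Groups without any overlap were common among the called contigs. The lowest activated library lay above the highest control library for 47 of the 76 contigs called higher, and for 187 of all contigs tested (0.0589%). The highest activated library lay below the lowest control library for 31 of the 36 contigs called lower, and for 344 of all contigs tested (0.108%). Non-overlap was thus rarer in the direction that had more calls. When the activated library of snail 9 was left out, the counts over all contigs were 740 (0.233%) higher and 415 (0.131%) lower, and 52 of the 76 and 31 of the 36 did not overlap. A single library held over 50% of the summed CPM of the higher group for 4 of the 76 and for 1 of the 36. These counts describe contigs that the same libraries selected.

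The contig called higher with the smallest p, contig 549085, was present in every activated and absent from every control library. It held 1.39, 1.18, 1.10, 1.10, 1.16 and 1.31 CPM in the activated libraries of snails 7, 8, 9, 10, 11 and 13, from 87 counts in all. All 6 control libraries held 0 counts. The activated values were low and close to each other, with a mean of 1.21 ± 0.12 CPM (SD, n = 6). That of snail 9 rested on only 2 counts, and the others on 10 to 31. Taking 3 counts over all control libraries as the floor, the level was at least 33.5-fold higher in the activated samples (exact test, adjusted p = 7.32e-10), and it was called in 12 of 12 fits that left out a library. The contig had only 6 counts over the 12 libraries of E1 and was not tested there. E1 is the experiment on the whole PaG of 1 side, with the adhered visceral ganglion in the left parts.

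The most abundant contig called higher, contig 1685866, behaved in another way. It held 6852, 678, 2375 and 6053 CPM in the left activated parts of snails 8, 10, 11 and 13, and 22.5 and 38.3 CPM in the right activated parts of snails 7 and 9. The control libraries of snails 8, 9, 10, 11, 12 and 13 held 106.0, 38.1, 58.8, 22.5, 88.5 and 19.2 CPM. The left control parts, from snails 9 and 12, were among these low values. The groups therefore overlapped, although the exact test called the contig (log2 fold change 5.59, adjusted p = 0.0122). Within left parts the difference of log2(CPM + 0.5) was 5.61, and within right parts it was -0.46. In the pairs it was positive in 5 of 5, but 0.01 in snail 9, the pair with the right activated part. The call was lost without the control library of snail 9, 10, 11 or 13 (adjusted p up to 0.0892), and in the quasi-likelihood fit with the block and the side as a term (log2 fold change 3.11, adjusted p = 0.107). In that last fit, only the pair of snail 9 separates activation from side.

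Both contigs named among those called lower were reduced in every pair. Contig 1115943 held 0.96, 0.59, 0, 0.13, 2.13 and 0.94 CPM in the activated libraries of snails 7, 8, 9, 10, 11 and 13, against 28.2, 25.3, 13.6, 14.2, 13.2 and 19.2 CPM in the control libraries of snails 8, 9, 10, 11, 12 and 13. The highest activated value, in snail 11, was far below the lowest control value, in snail 12. The log2 fold change was -4.41 (exact test, adjusted p = 3.12e-06), and the paired difference averaged -4.23 ± 1.19 (SD, n = 5 pairs). Contig 1271931 had the smallest p of those called lower. It held 0.75, 0.24, 0, 0.39, 0.45 and 0.19 CPM in the activated libraries in the same order of snails, against 6.59, 8.03, 3.70, 3.60, 3.54 and 7.59 CPM in the control libraries. Its groups did not overlap either, with a log2 fold change of -3.83 (exact test, adjusted p = 2.53e-06) and a paired difference of -3.05 ± 0.85 (SD, n = 5 pairs). For both contigs the sign-flip permutation test gave its smallest p, 0.0625. Both contigs were picked from the calls made on these same libraries, so that this p is no independent test of them. The 0 of the activated library of snail 9 allows up to 1.64 CPM (3 counts) in either contig, counting error only. Both were called in 12 of 12 fits that left out a library.

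The called contigs differed in level between the directions. The median over all contigs tested was 0.235 CPM in the activated and 0.251 CPM in the control samples. The contigs called higher had a median of 2.70 CPM in the activated and 0.292 CPM in the control samples, whereas those called lower had a median of 0.105 CPM in the activated and 1.64 CPM in the control samples. By the mean over all 12 libraries, 27 higher and 21 lower contigs were below 1 CPM, among 256526 tested. Between 1 and 10 CPM there were 35 higher and 15 lower among 53188. From 10 to 100 CPM there were 11 higher among 6752, and at 100 CPM or more there were 3 higher among 948, with 0 lower in either class. The share of contigs called was 0.0187%, 0.094%, 0.163% and 0.316% in these classes from low to high. Of the 948 most abundant contigs, 9.81% differed more than 2-fold between the groups, with a median size of 0.211 on the log2 scale.

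For 7 of the contigs called higher, the control libraries held no count at all, and for 6 of those called lower, the activated libraries held none. Against a floor of 3 counts over the empty group, these contigs were at least 14.2-fold to 504-fold higher and at least 9.24-fold to 169-fold lower in the activated samples. With these contigs set at their bounds, the median log2 fold change was 3.30 for those called higher and -3.52 for those called lower. Only 1 of the 7, contig 549085, was detected in all 6 activated libraries. In each of the other 6, at least 1 activated library also held no count.

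The groups overlapped for each of the 3 contigs called at 100 CPM or more. Besides contig 1685866, a second one held 5.67, 485, 732 and 1037 CPM in the left activated parts of snails 8, 10, 11 and 13, and 0.426 and 0 CPM in the right activated parts of snails 7 and 9. Its control libraries held between 0.428 and 8.68 CPM. The other one held 5245 CPM in the activated library of snail 7, which was 99.3% of its activated sum. That contig held 30.8 CPM in the activated library of snail 8, 0.858 to 2.19 CPM in the remaining activated libraries, and 0.856 to 2.42 CPM in the control libraries. These contigs, picked after their values were seen, were called with adjusted p of 0.0379 and 0.0344 by the exact test.

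In most pairs, the contigs called higher were higher in the activated library. The median difference over the 76 contigs was 1.72 in snail 8, 1.44 in snail 9, 1.95 in snail 10, 2.57 in snail 11 and 1.80 in snail 13, with positive values for 73, 65, 75, 74 and 74 of them. Over the 36 contigs called lower it was -1.85, -1.83, -1.54, -0.84 and -2.01 in the same order, with negative values for 36, 34, 35, 33 and 36. The median over all contigs tested was 0, -0.28, 0, 0.10 and -0.08. Snail 9 gave the smallest difference for the higher contigs and snail 11 the smallest for the lower ones. In all 5 pairs, 61 of the 76 were higher and 31 of the 36 were lower. The share of all contigs tested with the same direction in all 5 pairs is not given here. The pairs are among the libraries that selected these contigs, so the values describe the list and do not test it.

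**Figure D3:**
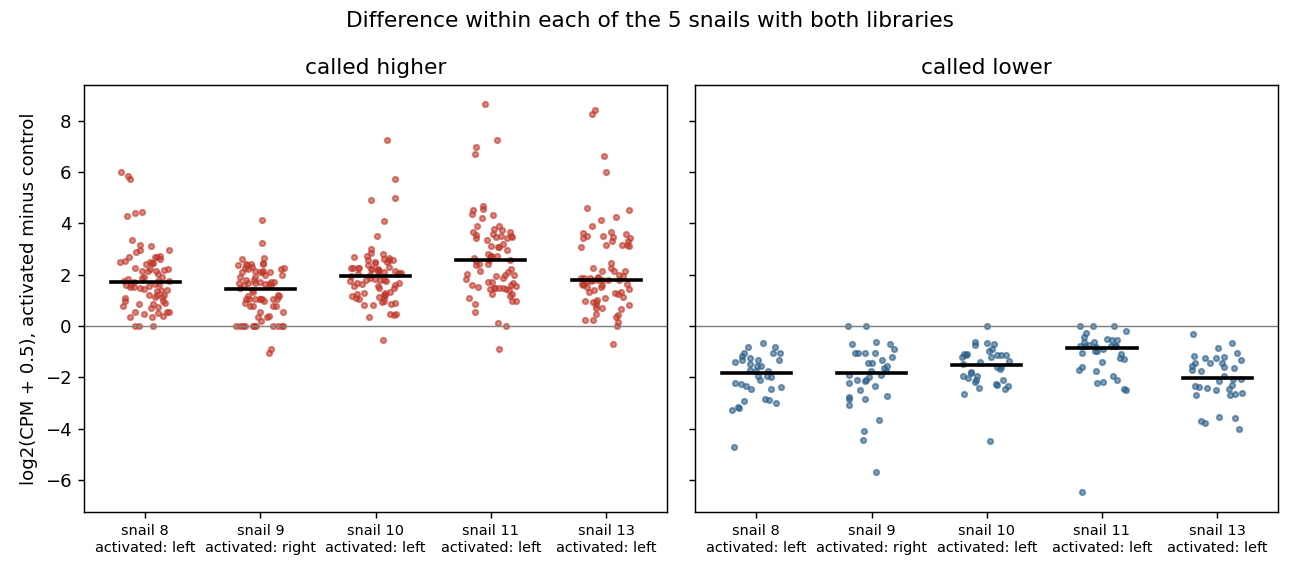
Activated minus control difference of log2(CPM + 0.5) within each snail, for the 76 contigs called higher (left panel) and the 36 called lower (right panel). Each point is a contig and bars are medians, which lie between 1.44 and 2.57 for the higher and between -2.01 and -0.84 for the lower contigs.

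To see the response in libraries that did not select the contigs, the test was repeated on the 10 paired libraries and read in the unpaired ones. This fit called 106 contigs, 78 higher and 28 lower, which held 42 of the 76 and 18 of the 36. Of the 78, 43 (55.1%) were higher in the activated library of snail 7 than in the control library of snail 12, 17 were lower and 18 were equal, with a median difference of 0.66 on the log2(CPM + 0.5) scale. Of the 28, 18 (64.3%) were lower, 7 were higher and 3 were equal (median -0.58). Over all contigs tested on the pairs, 45.5% were higher and 40.1% were lower in the activated library. The direction of the call was thus found for a larger share than in contigs in general (55.1% against 45.5% higher, 64.3% against 40.1% lower). The held-out medians were smaller in size than all of those given above within the pairs, which belong to the lists of 76 and 36. Among the contigs that the fit on all 12 libraries also called, 32 of 42 were higher and 17 of 18 were lower, but those had been selected with the unpaired libraries included. The 2 unpaired libraries come from different snails and sides, so that snail, side and activation cannot be told apart in this contrast.

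Side and activation were partly confounded. All 4 left activated and all 4 right control parts came from snails 8, 10, 11 and 13, whereas the right activated parts came from snails 7 and 9, and the left control parts from snails 9 and 12. A comparison within a side was therefore always between different snails. Within both sides, 49 of the 76 contigs called higher and 27 of the 36 called lower differed more than 2-fold on the log2(CPM + 0.5) scale, in the direction of the call. For 16 higher and 2 lower contigs this held within left parts only, for 8 higher and 4 lower ones within right parts only, and for 3 of each within neither. This scale understates changes of low contigs. A contig below 0.5 CPM in both groups cannot reach 2-fold on it, whatever its ratio. The median difference over the higher contigs was 1.65 within left and 1.79 within right parts, and over the lower ones -1.46 and -1.67. Over all contigs tested, it was 0.04 within left and -0.19 within right parts.

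A group of 8 contigs called higher stood apart, as contig 1685866 did, since they were 0 or below within right parts. Their differences ranged from 2.41 to 7.30 within left parts and from -1.96 to 0 within right parts. In 5 of the 8, each of the 4 left activated libraries lay above all 8 other libraries. This pattern was found in 7 of the 76 contigs called higher and in 621 of all contigs tested (0.196%). All 8 were called in the quasi-likelihood fit with the block, 5 by DESeq2, 0 when the side was added to the block as a term, and 0 by limma-voom. By the layout, only the pair of snail 9, which holds the smallest library, separates activation from side in the fit with both terms. None of the 8 was called in all 12 fits that left out a library. Contigs 105745 and 1186181, at 0.01 and 0.32 within right parts, also had the 4 left activated libraries above all 8 others. They were picked after their values were seen, and both were called in all 12 fits. Left activated parts came only from snails 8, 10, 11 and 13. Which combination of side, snail and activation these contigs follow therefore cannot be told apart.

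**Figure D4:**
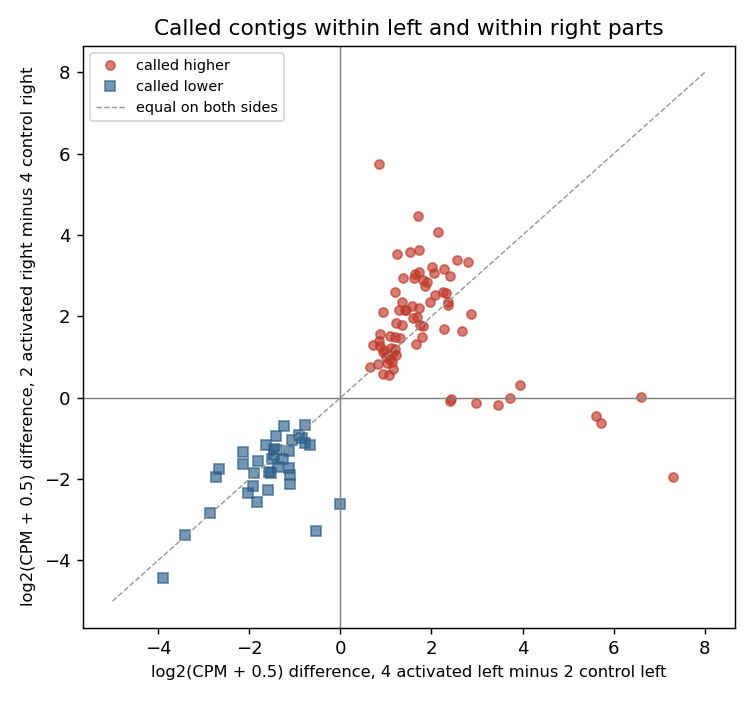
Differences of log2(CPM + 0.5) for the 112 called contigs, within left parts (4 activated minus 2 control libraries, horizontal axis) and within right parts (2 activated minus 4 control libraries, vertical axis). Most points lie near the line of equal differences, and 8 contigs called higher lie at 0 or below on the vertical axis with 2.41 to 7.30 on the horizontal axis.

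The side itself was tested next. With the activation in the fit, the quasi-likelihood test called 175 contigs (0.0551%) between left and right parts, 171 higher in the left and 4 lower, and 0 of these were among the 112, a list so short that this share gives less than 1 contig. The interaction of activation and side was called for 44 contigs (0.0139%), again with 0 among the 112. By the layout of the samples, this interaction is the contrast of the 8 libraries of snails 8, 10, 11 and 13 with the 4 libraries of snails 7, 9 and 12. In 23 of the 44, every library of the first set and no library of the second held a count, and in 1 it was the reverse. The interaction therefore cannot be told apart from a difference between snails.

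The contigs called in E2 were then set beside their values in E1. There, the same drugs and durations were used on the whole PaG of 1 side of 6 other snails. By the methods, the left parts of E1 also held the adhered visceral ganglion. The 2 experiments share no library, and were normalized and tested separately. Of the 76 contigs called higher, 75 were tested in E1, where the exact test called 327 contigs higher (0.0843%) and 7 lower (0.00181%). The E1 log2 fold change was positive for 65 of the 75 (86.7%), against 51.1% of all contigs tested in E1, with a median of 2.77 against 0.01 over all contigs. A total of 33 were called higher in E1 too, which is 43.4% of the E2 list and 10.1% of the E1 list. Of the 36 called lower, 27 (75.0%) had a negative value in E1, with a median of -0.52 and a range from -1.81 to 0.82, 2 of them were more than 2-fold lower there, and 0 were called by the exact test. The contigs called lower in E2 had smaller fold changes in E1 than the contigs called higher.

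**Figure D5:**
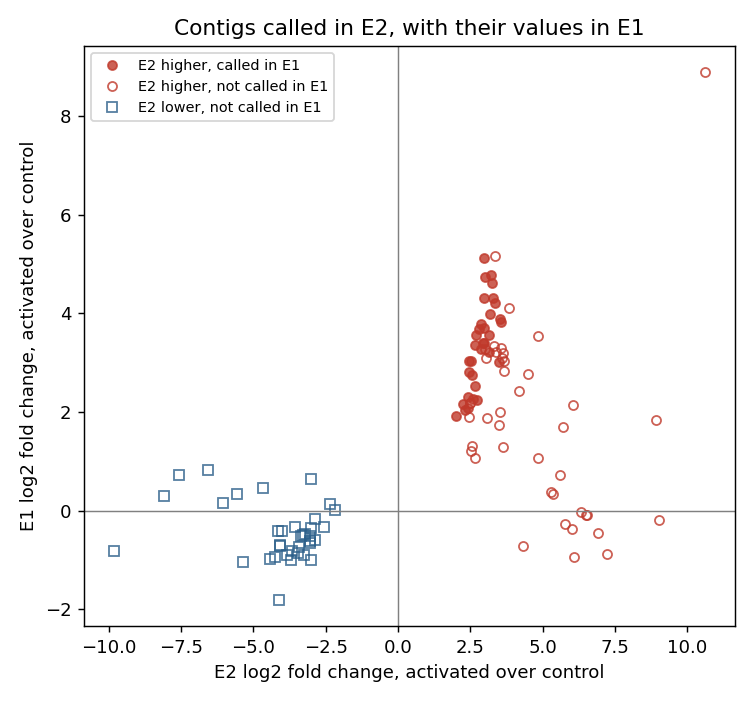
Log2 fold changes, activated over control, of the contigs called in E2 (horizontal axis) and in E1 (vertical axis), with filled symbols for those also called in E1. The 33 filled points lie between 2.01 and 3.55 on the E2 axis, and the 36 contigs called lower in E2 lie between -1.81 and 0.82 on the E1 axis.

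The 33 contigs called higher in both experiments were higher in every E2 pair and on both sides, though not to the same extent. Their median difference of log2(CPM + 0.5) was 1.72 within left and 2.6 within right parts. For the other 43 contigs called higher in E2, it was 1.31 and 1.18. Within E2, 33 of the 33 were higher in all 5 pairs, and the groups did not overlap for 27. Among the other 43, 28 were higher in all pairs and 20 did not overlap. Over all contigs tested, activated libraries were higher without overlap for 0.0589%. On the log2(CPM + 0.5) scale, 33 of the 33 and 16 of the 43 were more than 2-fold higher within both sides. That scale understates changes of low contigs, and the 43 had lower median levels. The smaller within-side values of the 43 therefore do not show a weaker response. The E2 log2 fold changes of the 33 ranged from 2.01 to 3.55 (median 2.88), whereas those of the 43 ranged from 2.44 to 10.61 (median 4.17). The 33 had a median level of 8.20 CPM in the activated and 1.21 CPM in the control samples, and the 43 had 1.48 CPM and 0.0575 CPM. All 7 contigs without a count in the control libraries were among the 43. None of the 8 contigs that were 0 or below within right parts was called in E1, where 7 of them lay between -1 and 1 (median of the 8, -0.17). The remaining one, without a count in any control library of E2, had an E1 log2 fold change of 8.89 (exact test, adjusted p = 0.28), the highest of the 75. Of the 14 contigs called higher with a mean of at least 10 CPM, 9 were called in E1, and the remaining 5 held the 3 most abundant ones.

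The values of the named contigs in E1 were as follows. c-fos/fosl2 averaged 61.5 ± 27.4 CPM in the activated and 6.18 ± 5.31 CPM in the control samples of E1 (SD, n = 6 each), with a log2 fold change of 3.30 (exact test, adjusted p = 0.00051). Its control level was thus higher in the medial part than in the E1 tissue, which held the visceral ganglion in its left parts. However, the 2 experiments were normalized separately and this difference was not tested. Contig 1685866 averaged 120.4 ± 241.4 CPM in the activated and 72.9 ± 122.2 CPM in the control samples of E1 (log2 fold change 0.72, exact test, adjusted p = 1). Contig 1115943 averaged 8.97 ± 7.06 CPM and 17.7 ± 4.26 CPM (log2 fold change -0.98), and contig 1271931 averaged 3.30 ± 3.33 CPM and 6.13 ± 1.89 CPM (log2 fold change -0.89), in the activated and control samples, and both had an adjusted p of 1 in the exact test. In E2, contig 1115943 averaged 0.79 ± 0.77 CPM and 19.0 ± 6.49 CPM, and contig 1271931 averaged 0.33 ± 0.26 CPM and 5.51 ± 2.13 CPM in the activated and control samples.

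The difference between the experiments was tested with the interaction of activation and experiment over 294392 contigs tested in both. The quasi-likelihood test called 0 of them (0%), with 6613 at an unadjusted p below 0.05. This fit does not use the pairs, and the same test without a block also called 0 contigs for activation within E2. With the snail as a block, a fit chosen after seeing the data, the interaction was again called for 0 contigs (8906 at an unadjusted p below 0.05). Without the block, the interaction was -3.44 on the log2 scale for contig 1115943 (unadjusted p = 4.5e-05 by the quasi-likelihood test of edgeR) and -2.95 for contig 1271931 (unadjusted p = 0.000179), with an adjusted p of 1 for both. It was 4.80 for contig 1685866 (unadjusted p = 0.0198, adjusted p = 1). For c-fos/fosl2 it was -1.30 (unadjusted p = 0.0901, adjusted p = 1). With the block, it was -3.53 for contig 1115943 (adjusted p = 0.303) and -2.81 for contig 1271931 (adjusted p = 0.484). The interaction did not pass the threshold for any of these contigs in either quasi-likelihood fit, which does not show that their responses were alike.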

How the data were processed

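RNA-Seq libraries were made from activated and control parts of the PaG of Helix lucorum. Poly A+ RNA is named in the labels, but the methods give a kit for stranded total RNA after removal of rRNA. The authors removed adapters with cutadapt 1.11, assembled 693041 contigs without a genome, mapped reads with Bowtie 1.0.0 and estimated counts with RSEM 1.2.18. The deposited values are expected counts per contig and library from RSEM, neither normalized nor filtered. RSEM divides reads that match several contigs, so that contigs of 1 transcript or of near-identical genes can share reads. All 24 columns matched a sample by name, and 11 samples used only for the assembly were not analysed here.

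Expected counts were rounded, contigs with a total above 10 over the 12 E2 libraries were kept (317414 of 693041), and CPM were obtained from library sizes scaled by TMM. Groups were compared with edgeR's exact test (estimateDisp), the test the study used, with Benjamini-Hochberg adjustment. Log2 fold changes are activated over control. Within-snail and within-side differences use log2(CPM + 0.5), which understates changes of low contigs. The software was R 4.3.3, edgeR 4.0.16, limma 3.58.1 and DESeq2 1.42.0. The exact test and the quasi-likelihood test with and without the block were also run on simulated counts. These counts held no snail effect, so that they cannot check the block. Floors of 3 counts cover counting error only.

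A snail number marks 1 animal, so the numbers pair the samples. For 20470 contigs whose mean count was 50 or more, the deviations from the group means correlated between 0.374 and 0.749 for the 5 same-snail pairs and between -0.272 and 0.0880 for the 31 others.

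The files pair no contig with a gene. Named were the contig that the study's probe identifies as c-fos/fosl2 and, in each direction, the called contig with the smallest p and, apart from it, the one with the highest mean CPM. The groups, lists and tests were chosen with earlier results of these data known. Alternatives covered the test, the block, the side, scaling, filters, dispersions, rounding, depth and the set of libraries. The robust prior, the CPM filter combined with the quasi-likelihood tests, the block in the interaction of activation and experiment, and leaving out both libraries of snail 9 were chosen after seeing the data.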

Additional observations from a re-analysis of the deposited data

Results flagged for a closer look

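The activated library of snail 9 stood apart from the other activated libraries in 2 measures, by its gap to the nearest library relative to the range of the group. Its TMM factor was 1.99, where the next highest was 1.04, and its median distance to the other E2 libraries was 0.560, where the next highest was 0.457. It was also the smallest library, and without it 192 contigs were called. The control library of snail 13, the deepest control library, had a median distance of 0.420, where the next lowest control library had 0.443. Chance gives such a gap in about 1 of 20 groups, and 18 groups of values were examined, with 3 gaps found. The interaction of activation and side was called for 44 contigs, which by the layout is also the contrast of snails 8, 10, 11 and 13 with snails 7, 9 and 12. Whether depth or the snail had a part in these values was not tested.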

How the results depend on the processing

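The 112 calls of the exact test were within 1.5 times of the count (99 to 164) with RLE factors, no scaling, a total of at least 10, the CPM filter, other dispersions, rounding down, the 10 paired libraries, thinning of deep libraries, the block with the side, and without both libraries of snail 9. The block with the side called 164 contigs, but only 19 of the 112 were among them. In that fit, only the pair of snail 9, with the smallest library, separates activation from side. The quasi-likelihood test called 0 without a replicate block, 0 with the side as a term (9024 at an unadjusted p below 0.05), 1461 with the snail as a replicate block, 1368 with the block and a robust prior, 0 with the block and the CPM filter, and 11 without the block and with the CPM filter. limma-voom called 59, DESeq2 235, the exact test without a filter 59, at an adjusted p below 0.01 37, on left parts 519 and on right parts 241. Leaving out 1 library gave 52 to 192. With the block and the side, the median log2 fold change over all contigs was -0.81, against -0.06 in the exact test, and 42.7% of 164 calls were higher. Contig 1685866 reversed on right parts (-0.74). For the 5 named contigs, 170 of 200 values under the alternatives stayed the same, 22 lost the call, 2 gained it, 5 moved in size and 1 reversed. The 170 include 31 of c-fos/fosl2, which had no call to keep, and paired differences, which carry no call. Contig 1685866 kept the call in 21 alternatives and lost it in 11. Contigs 549085, 1271931 and 1115943 kept it in 29, 29 and 30 and lost it in 4, 4 and 3. All 4 named called contigs lost the call in 3 quasi-likelihood fits (without block and CPM filter, with the side as the only added term, and with both block and CPM filter), and kept it with the block alone. Contigs 549085, 1271931 and 1115943 kept it with the CPM filter and no block, and 1271931 and 1115943 with the block and the side. The interactions gave 60 (side) and 0 (experiment, 554 at an unadjusted p below 0.05) with the CPM filter, and the experiment interaction gave 0 with the replicate block, also with the CPM filter (1773 at an unadjusted p below 0.05). The cause of these differences was not tested. In the smallest library a contig at 0 may hold up to 1.64 CPM, which limits calls of rare contigs.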
